A study of Mus musculus with 4 samples.

Results

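The Hox cluster genes were examined in sorted blood progenitors of mouse bone marrow. Members were the rows of the deposited signal table whose gene symbol is Hox, a cluster letter from a to d and a number, with no antisense name. The rule found 39 genes of 24277 on the array, read by 44 probes on 62 spots: 11 genes in the Hoxa cluster, 10 in Hoxb, 9 in Hoxc and 9 in Hoxd. The rule used names alone and no measured value.

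The study asked which genes change in progenitors of mice that carry an SFRP5 transgene. SFRP5 is a secreted protein that binds Wnt ligands. RNA was read on 4 single-colour Agilent arrays, 1 for each of 4 groups from adult bone marrow: WT LSK, SFRP5 LSK, WT CLP and SFRP5 CLP. WT mice were littermates of the SFRP5-transgenic mice, and neither the promoter of the transgene, nor the number, sex or exact age of the mice, nor any pooling is given in the sources used here. LSK cells lack lineage markers, carry Sca-1 and have high c-Kit, and are the sort in which blood stem cells and multipotent progenitors lie. The CLP sort lacks lineage markers too, has low c-Kit and low Sca-1, carries the IL-7 receptor and is described as enriched for common lymphoid progenitors. With 1 array per group, no group has a replicate.

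Hox genes encode transcription factors with a homeodomain that give cells their position along the body axis. They lie in 4 clusters, and the genes with the same number in different clusters form a paralogous group. Their order along the chromosome follows the order in which they act from head (low numbers) to tail (high numbers). In blood, genes of the Hoxa cluster and part of the Hoxb cluster are known to be active in stem cells and early progenitors and to be shut down as cells mature, and HOX proteins bind DNA together with cofactors of the PBX and MEIS families. Chromatin regulators of the Trithorax group (such as MLL1, the product of Kmt2a) keep Hox genes active, and Polycomb complexes keep them silent.

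Values below are log2 signals relative to the 75th percentile of all spots on the same array. A level can be compared between arrays for 1 gene, and not between genes, since probes differ in how strongly they bind. A gene is called above background when the scanner software flags most of its probe's spots as well above background. Between replicate spots of probes printed several times on an array, the median SD was 0.0586 to 0.0706 at or above the 75th percentile. It rose to 0.176 to 0.217 for probes from 4 to 2 log2 below it and to 0.4001 to 0.502 for dimmer ones. These SDs describe the array surface and not the spread between mice.

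A smaller share of the Hox genes than of all genes was above background. In LSK the flag was set for 18 of 39 Hox genes in WT and 17 in SFRP5 mice, against 72% and 68.6% of all genes on the array. In CLP it was set for 14 and 15, against 68.8% and 69.3%. With the scanner's less strict flag the counts were 27 and 26 in LSK and 26 and 29 in CLP, lower in CLP in WT mice only. The share of all genes with that flag was not computed, so these counts have nothing to be set against. Where 4 values are given in a row below, the WT and then the SFRP5 array of LSK come first, followed by the WT and the SFRP5 array of CLP. Of all 24277 genes on the array, 18778 were above background on at least 1 array and 15180 on all 4. Among the 39 Hox genes, 22 were above background on at least 1 array and 12 on all 4. The other 17 were above background on no array: Hoxa11, Hoxb1, Hoxb2, Hoxb7, Hoxb8, Hoxb13, Hoxc4, Hoxc6, Hoxc11, Hoxc12, Hoxc13, Hoxd1, Hoxd3, Hoxd4, Hoxd8, Hoxd9 and Hoxd11. A gene not above background may still be transcribed at a level these probes do not resolve. For Hoxb1 the reading repeated between spots, since its probe was printed on 10 spots and none of the 10 was flagged on any array (SD between spots 0.083 to 0.1). Repeated spots of 1 probe do not show whether that probe can detect its transcript. Of the 10 spots of Hoxa11, 1 was flagged, in SFRP5 LSK, where they spread from -6.94 to -4.32.

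The Hoxa cluster held the most detected genes. Of its 11 genes, 8, 9, 6 and 8 were above background. The numbers were 4, 5, 3 and 3 of 10 in Hoxb. In Hoxc they were 4, 2, 2 and 2 of 9, and in Hoxd 2, 1, 3 and 2 of 9. By position, 4, 5, 4 and 5 of the 12 anterior genes (paralogous groups 1 to 4) were above background, 6, 7, 4 and 5 of the 11 central genes (groups 5 to 8) and 8, 5, 6 and 5 of the 16 posterior genes (groups 9 to 13). Neighbours above background on both LSK arrays formed 2 runs, Hoxa3 to Hoxa10 and Hoxb3 to Hoxb5. These runs were drawn from the values themselves and are used only to order the description.

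**Figure D1:**
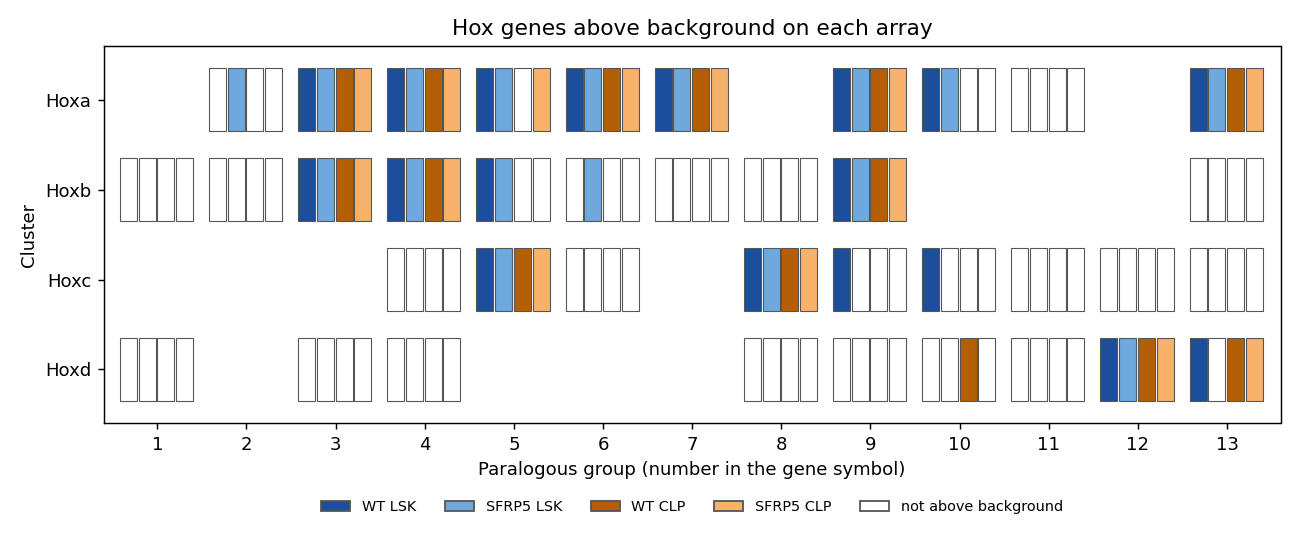
Hox genes above background in the reported set, by cluster (rows) and paralogous group (columns); each gene has 4 boxes, 1 per array, filled where its probe was well above background. Neighbours with both LSK boxes filled make up 2 runs, Hoxa3 to Hoxa10 and Hoxb3 to Hoxb5, and 17 genes have no filled box.

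The 7 genes from Hoxa3 to Hoxa10 lie side by side on chromosome 6. The 250 bases before the start of 3 of them are shown because these neighbours differed in how far they were lower in CLP: Hoxa5 and Hoxa9 are among the genes with a large difference, and Hoxa7 between them had the smallest of the run. Sequences are from RefSeq on GRCm38.p6 (not the mm9 build of the probes), on the strand of the gene, at chr6:52204588-52204837, chr6:52218574-52218823 and chr6:52227371-52227620, all on the minus strand. Capitals mark each TTTATG or CATAAA, the core of the site of CDX proteins, which activate Hox genes, and each GGGCGG or CCGCCC, the GC box.
Hoxa5: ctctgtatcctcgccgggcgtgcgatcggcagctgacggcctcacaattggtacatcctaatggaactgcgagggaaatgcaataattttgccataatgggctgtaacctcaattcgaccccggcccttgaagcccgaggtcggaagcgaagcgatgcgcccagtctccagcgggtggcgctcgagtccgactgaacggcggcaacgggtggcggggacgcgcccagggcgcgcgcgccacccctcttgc
Hoxa7: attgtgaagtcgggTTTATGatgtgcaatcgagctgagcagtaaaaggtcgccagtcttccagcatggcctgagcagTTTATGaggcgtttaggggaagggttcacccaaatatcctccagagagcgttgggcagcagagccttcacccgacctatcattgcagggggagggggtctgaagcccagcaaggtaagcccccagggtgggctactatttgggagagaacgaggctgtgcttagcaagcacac
Hoxa9: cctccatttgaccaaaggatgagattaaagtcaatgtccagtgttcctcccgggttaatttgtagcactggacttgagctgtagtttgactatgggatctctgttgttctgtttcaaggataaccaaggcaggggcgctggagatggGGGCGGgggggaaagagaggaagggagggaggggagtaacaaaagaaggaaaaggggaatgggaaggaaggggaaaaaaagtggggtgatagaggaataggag
The Hoxa7 sequence holds the CDX core at 2 places, Hoxa5 and Hoxa9 at none, and 10.8% of all 32851 upstream sequences of this length in the table hold it. The GC box occurs at 1 place before Hoxa9 and not in the other sequences, against 32.7% of all. Hoxa5 has 28 CG pairs in this window, Hoxa7 has 7 and Hoxa9 has 3, where the median over all sequences is 6. Of the 22 Hox genes with an entry in the table, 5 hold the CDX core (Hoxa7, Hoxb8, Hoxd3, Hoxd4 and Hoxd11) and 10 the GC box. The combined HOX and PBX site TGATTNAT, searched on both strands like the others, occurs before Hoxa2 and Hoxd11 (2.82% of all), and the MEIS core TGACAG before Hoxa2 and Hoxa3 (15.9% of all). A match of letters is a description of the sequence and not evidence of binding.

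Both LSK arrays read higher than both CLP arrays for each of the 7 genes from Hoxa3 to Hoxa10. Among all Hox genes above background on at least 1 array this held for 12 of 22, against 26.7% of all such genes. The 12 include Hoxa2, Hoxa10 and Hoxb5, which passed that filter through LSK arrays only. For them the filter itself favours this order, so the count is a description and no support. Hoxa3, a regulator of pharyngeal organs and of early blood vessels that give rise to blood, read 2.13 and 2.22 in LSK (WT, then SFRP5) and -0.22 and -0.43 in CLP. The difference between the sorts was 5.09-fold in WT and 6.27-fold in SFRP5 mice. Hoxa4, a paralogue of the stem cell regulator Hoxb4, read -1.23, -2.65, -4.30 and -4.59 in the same order. It was lower in CLP by 8.40-fold in WT and 3.84-fold in SFRP5 mice. With normexp background correction the differences of Hoxa4 were smaller, -1.03 on the log2 scale in WT and -0.65 in SFRP5 mice. Hoxa5, which is known to act in the choice between myeloid and erythroid fates, read -0.62 and 0.20 in LSK and -2.66 in SFRP5 CLP. Its WT CLP signal of -4.74 was not well above background, so that the WT difference is at least 17.5-fold, beside a measured 7.28-fold in SFRP5 mice. Such bounds take the higher of the dim probe's own signal and the lowest signal among probes well above background on that array. All bounds given here hold for this processing only. With normexp background correction the WT difference of Hoxa5 was -1.70 on the log2 scale, smaller than its bound.

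Hoxa6 read -0.73 and 0.44 in LSK and -2.41 and -3.26 in CLP, a difference of 3.21-fold in WT and 13.02-fold in SFRP5 mice. With normexp the differences of Hoxa6 were -0.948 on the log2 scale in WT, under 2-fold, and -2.29 in SFRP5 mice. The LSK and CLP values of Hoxa6 do not overlap, but the size of the gap was the least alike between the genotypes among the genes above background on all 4 arrays. Hoxa7, a partner of Hoxa9 in leukaemias driven by MLL fusions, read 1.67, 1.63, 0.62 and 0.89. It was 2.07-fold lower in WT CLP and 1.67-fold lower in SFRP5 CLP, the smallest differences of the run. Hoxa9, the Hox gene best known for maintaining stem cells and for its part in acute myeloid leukaemia, read 1.91 and 2.11 in LSK and -0.91 and -0.30 in CLP, which is 7.06-fold and 5.31-fold. The other probe of Hoxa9 read -0.22, 0.68, -2.61 and -3.72, above background on all 4 arrays. It agrees on the direction between the sorts, but in CLP it was lower in SFRP5 than in WT mice, against the first probe.

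Hoxa10, another gene that drives expansion of progenitors when overexpressed, was above background in LSK only, at 0.28 in WT and -0.34 in SFRP5. Both CLP signals (-4.91 and -5.35) were not well above background. The difference was at least 32.4-fold in WT and at least 23.8-fold in SFRP5 mice. The run ended there on the posterior side: Hoxa11, the next gene, was above background nowhere, and Hoxa13 at the end of the cluster read -0.51, -0.63, -0.78 and -0.86, a range under 2-fold. A further probe of Hoxa13 was not above background on any array. On the anterior side, Hoxa2 was above background in SFRP5 LSK only (-3.66), in the range where replicate spots spread widely.

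In the Hoxb cluster, Hoxb3, Hoxb4 and Hoxb5 also read higher on both LSK arrays than on both CLP arrays. Hoxb3 read -1.07 and -1.50 in LSK and -3.82 and -3.55 in CLP, a difference of 6.72-fold in WT and 4.15-fold in SFRP5 mice. With normexp the differences of Hoxb3 were under 2-fold, -0.977 on the log2 scale in WT and -0.878 in SFRP5 mice. Its other probe read -2.45 and -2.22 in LSK and -4.29 in SFRP5 CLP. In WT CLP that probe was not above background. Hoxb4, which expands blood stem cells when overexpressed, read -0.17 and 0.06 in LSK, and -2.76 (WT) and -1.12 (SFRP5) in CLP. It was thus 6.03-fold lower in WT CLP than in WT LSK, and 2.27-fold lower in the SFRP5 pair. With normexp the differences of Hoxb4 were -1.47 on the log2 scale in WT and -0.927 in SFRP5 mice, the latter under 2-fold. Hoxb5, a marker of long-term blood stem cells, read -3.31 in WT LSK and -1.95 in SFRP5 LSK, and was not above background in CLP. The bounds for Hoxb5 were at least 2.69-fold in WT and at least 7.77-fold in SFRP5 mice. With normexp its differences were smaller, -0.315 on the log2 scale in WT and -1.16 in SFRP5 mice.

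Outside these runs the Hoxb cluster gave Hoxb6 and Hoxb9. Hoxb6 read -0.72 in SFRP5 LSK and was not above background on the other 3 arrays, where its signals were -6.11, -6.57 and -5.06. Its SFRP5 LSK reading was at least 18.2-fold above SFRP5 CLP and at least 16.8-fold above WT LSK, and rests on 1 probe on 1 array. With normexp the differences were -1.72 on the log2 scale (CLP minus LSK in SFRP5) and 1.75 (SFRP5 minus WT in LSK). Hoxb9 was above background on all 4 arrays at -2.59, -3.23, -2.64 and -3.31.

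**Figure D2:**
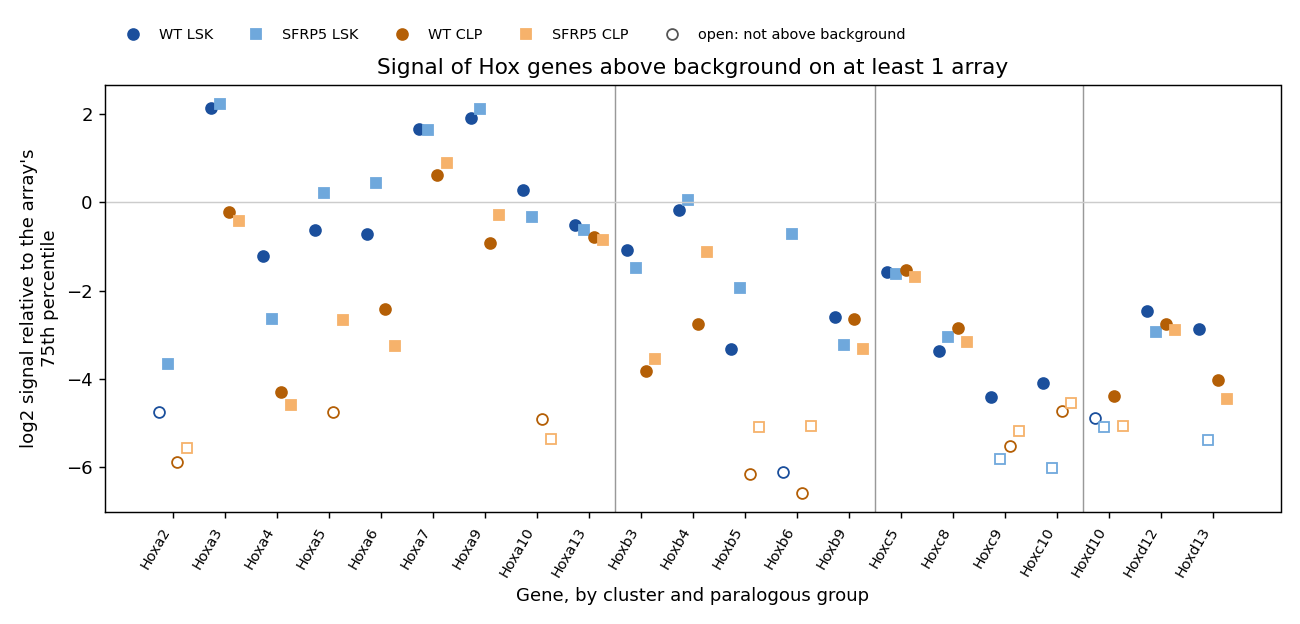
Log2 signal of Hox genes above background on at least 1 array, relative to the 75th percentile of each array; 1 marker per array, open where the gene was not above background, with vertical lines between the clusters. LSK markers lie above CLP markers from Hoxa3 to Hoxa10 and from Hoxb3 to Hoxb5, whereas the 4 markers of Hoxa13, Hoxb9, Hoxc5, Hoxc8 and Hoxd12 lie within a 2-fold range.

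Among genes above background on both arrays of a pair, 8 of 13 Hox genes were at least 2-fold lower in CLP in WT mice (Hoxa3, Hoxa4, Hoxa6, Hoxa7, Hoxa9, Hoxb3, Hoxb4 and Hoxd13), against 14.3% of all genes. None of the 13 was 2-fold higher, against 17.8%. In SFRP5 mice, 7 of 13 were lower (Hoxa3, Hoxa4, Hoxa5, Hoxa6, Hoxa9, Hoxb3 and Hoxb4), against 11%, and none was higher, against 11.5%. The median difference of the 13 Hox genes was -1.17 in WT and -1.18 in SFRP5 mice, and that of all genes measured was 0.02 in each. Of the 12 Hox genes above background on all 4 arrays, 6 were 2-fold lower in CLP in both genotypes (5.3% of all such genes) and none was 2-fold higher in both (7.01%). The direction was the same in both genotypes for 9 of the 12, against 69.2%. The WT and SFRP5 pairs share no array. Of genes above background on only 1 array of a pair, bounds put Hoxa5, Hoxa10 and Hoxb5 (3 of 6) at least 2-fold lower in WT CLP, against 30.8% of all genes. In SFRP5 CLP they put Hoxa2, Hoxa10, Hoxb5 and Hoxb6 (4 of 6) lower, against 25.3%. No bound put a Hox gene 2-fold higher in CLP, where the share of all genes was 15.9% in WT and 25% in SFRP5 mice.

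A single fit over all arrays, with sort and genotype as separate terms, gave the tests (limma, Benjamini-Hochberg adjustment over 17414 genes above background on at least 2 arrays). It sets the mean of the differences in both genotypes against their disagreement, with 1 residual degree of freedom moderated over all genes, and assumes that sort and genotype do not interact. Of the 12 Hox genes above background on all 4 arrays, it called 4 lower in CLP at an adjusted p under 0.05 and none higher, against 1.28% lower and 1.65% higher among all such genes. Hoxa9 fell by 2.61 on the log2 scale (SE 0.373, adjusted p = 0.0290 in limma). The difference was -2.50 for Hoxa3 (SE 0.368, adjusted p = 0.0308), -2.40 for Hoxb3 (SE 0.394, adjusted p = 0.0400) and -2.51 for Hoxa4 (SE 0.440, adjusted p = 0.0466). With quantile or cyclic loess normalization the calls of Hoxa4 and Hoxb3 were lost, with normexp background correction that of Hoxa4, and with no filter on dim probes all 4.

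A further 3 Hox genes were called lower in CLP with a signal that was not above background there, which makes 7 of 16 in the fit, against 2.29% lower and 2.46% higher among all 17414 genes. Hoxa10 and Hoxb5 entered the fit only through the LSK arrays, where they are high, so their calls are no support beyond the bounds above. The adjusted p was 0.0118 for Hoxa10, 0.0211 for Hoxb5 and 0.0240 for Hoxa5, which had 1 of its CLP arrays above background. No size is given from the fit for these 3, because it takes dim signals as read. The call of Hoxb5 was lost with normexp (adjusted p = 0.128), and with no filter on dim probes Hoxa10 alone of the 7 was still called.

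Hoxa6 (-2.69, SE 0.575, adjusted p = 0.0726) and Hoxb4 (-1.89, SE 0.478, adjusted p = 0.103) missed the threshold. At an unadjusted p under 0.05 the fit gave 9 of the 16 Hox genes, these 2 included, against 22.9% of all genes. The 9 also include Hoxa10 and Hoxb5, which entered the fit only through the LSK arrays, so the count is a description only. For Hoxa7 the estimate was -0.90 (SE 0.369, adjusted p = 0.235). The 5 remaining genes above background on all 4 arrays lie outside the 2 runs, and their estimates ran from -0.25 for Hoxa13 to 0.20 for Hoxc8.

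**Figure D3:**
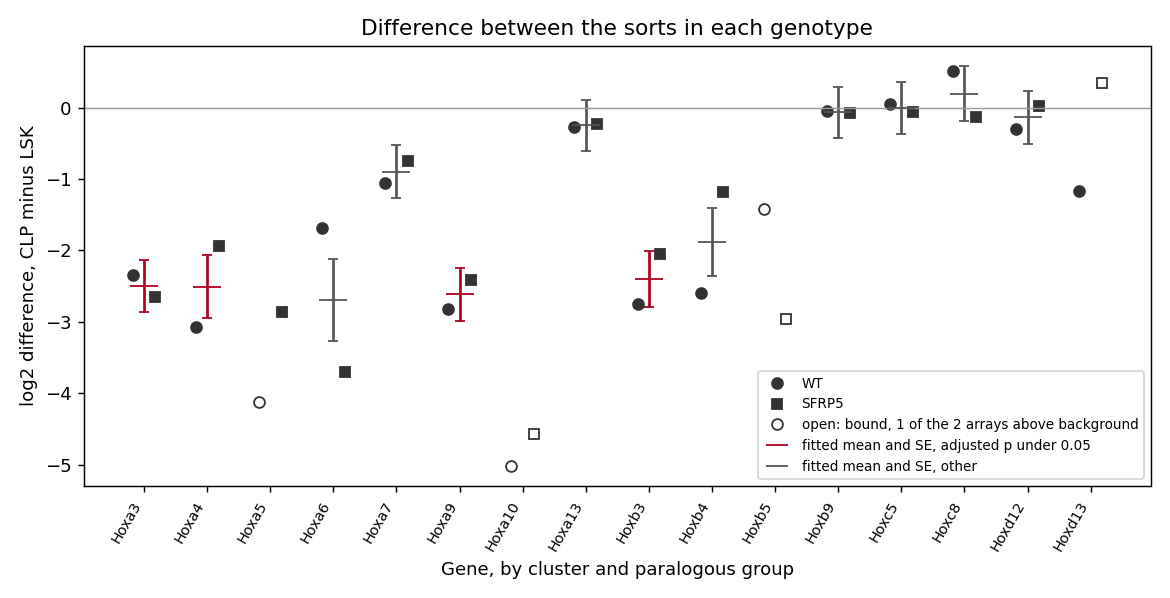
Log2 difference, CLP minus LSK, of the 16 Hox genes in the fit: circles for WT, squares for SFRP5, open where the value is a bound, and, for the 12 genes above background on all 4 arrays, a bar with SE for the fitted mean, red where the adjusted p is under 0.05. The 4 red bars run from -2.40 for Hoxb3 to -2.61 for Hoxa9, and Hoxb9, Hoxc5 and Hoxd12 sit near 0 in both genotypes.

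The sorts also differed in markers of other cell types. Of 8 stem and multipotent markers, 4 were called lower in CLP (Flt3, Cd34 and Hlf among them), and 5 of 8 lymphoid markers higher, Il7r among them. All 7 erythroid markers were called higher in CLP, and their summed level, in units of the 75th percentile, was 21.2 and 20.8 on the LSK arrays and 641 and 371.3 on the CLP arrays. Sums of this kind are carried by the brightest probes, here Hba-a1 (log2 signals of 8.502 and 7.625 in CLP), and do not weigh the genes equally. All 5 mast cell and basophil markers were called higher (1.29 on each LSK array, 52.5 and 36.4 on the CLP arrays), as were 3 of the 5 neutrophil and monocyte markers tested (55.3 and 76.5 against 280.8 and 316.5). The megakaryocyte list had 1 of 4 higher. Of the stromal and endothelial markers 1 of 8 tested, Cxcl12, was called higher and none lower. Pdgfrb had an estimate of -3.52 (adjusted p = 0.0540), and Cdh5 was above background in WT CLP only. Some calls in these lists, such as those of Ebf1, Fcer1a and Ms4a2, rest on LSK signals not above background. The part of these cell types in the Hox differences was not tested. In such bulk samples, fewer cells of a type and less RNA per cell cannot be told apart.

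The detected genes of the Hoxc and Hoxd clusters, with Hoxa13 and Hoxb9, gave no called difference between the sorts. Hoxc5 read -1.59, -1.63, -1.54 and -1.69, Hoxc8 read -3.36, -3.04, -2.84 and -3.17, and Hoxd12 read -2.46, -2.93, -2.76 and -2.90. Together with Hoxa13 and Hoxb9, these make 5 of 12 genes above background on all 4 arrays whose range stayed under 2-fold, against 49.9% of all such genes. Under other scalings the sign of the sort difference changed for Hoxb9, Hoxc5 and Hoxd12. Hoxd13, a gene of the distal limb, read -2.86 in WT LSK and -4.03 and -4.46 in CLP. Its SFRP5 LSK signal of -5.39 was not above background, and the bound put SFRP5 CLP 1.27-fold above SFRP5 LSK, opposite to the WT pair. The WT difference was under 2-fold with quantile (-0.773 on the log2 scale), cyclic loess (-0.732) and normexp (-0.307) processing. With the deposited table it was -1.581. Hoxc9 and Hoxc10 were above background in WT LSK only (-4.42 and -4.08), and Hoxd10 in WT CLP only (-4.38), each more than 4 log2 below the 75th percentile.

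Between the genotypes no Hox gene was called. The same fit called 0 of 16 Hox genes for genotype, and over all genes it called none lower and 1 higher (0.00574%), which was Xist. At an unadjusted p under 0.05 it gave 2 of the 16, against 5.11% of all genes: Hoxa5 (unadjusted p = 0.0239, adjusted p = 0.900 in limma) and Hoxb5 (unadjusted p = 0.0201, adjusted p = 0.889). Both tests use CLP signals not above background, so no fitted size is given. For Hoxa5 the SFRP5 array was higher by 1.76-fold in LSK and by at least 4.22-fold in CLP. With normexp the difference in CLP was 0.467 on the log2 scale.

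In LSK, 1 of 15 Hox genes measured on both arrays was 2-fold lower in SFRP5 mice (Hoxa4, 2.68-fold; 7.17% of all genes) and 2 were 2-fold higher (Hoxa6, 2.25-fold, and Hoxb5, 2.58-fold; 6.57%). Of 5 Hox genes above background on 1 LSK array only, bounds put Hoxb6 and Hoxa2 (2-fold or more) higher, against 12.8% of all genes, and Hoxd13 lower, against 30.3%. In CLP, 1 of 13 was 2-fold higher (Hoxb4, 3.12-fold; 4.25%) and none lower (4.3%). Of 3 Hox genes above background on 1 CLP array only, a bound put Hoxa5 2-fold or more higher (17.2% of all genes) and none lower (17.6%). Of the 12 genes above background on all 4 arrays, 7 differed in the same direction in both sorts, against 47% of all such genes, and none by 2-fold in both (1.14%). The median genotype difference of the Hox genes was -0.04 in LSK and -0.16 in CLP, against 0.02 and -0.04 for all genes. The arrays of the genotypes also differed in sex-linked genes: Xist was above background on both SFRP5 arrays (4.99 and 4.50) and on neither WT array, while 4 of 4 Y-linked genes were above background on every array, each lower in SFRP5 mice. The sex of the animals and the genotype cannot be told apart here.

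**Figure D4:**
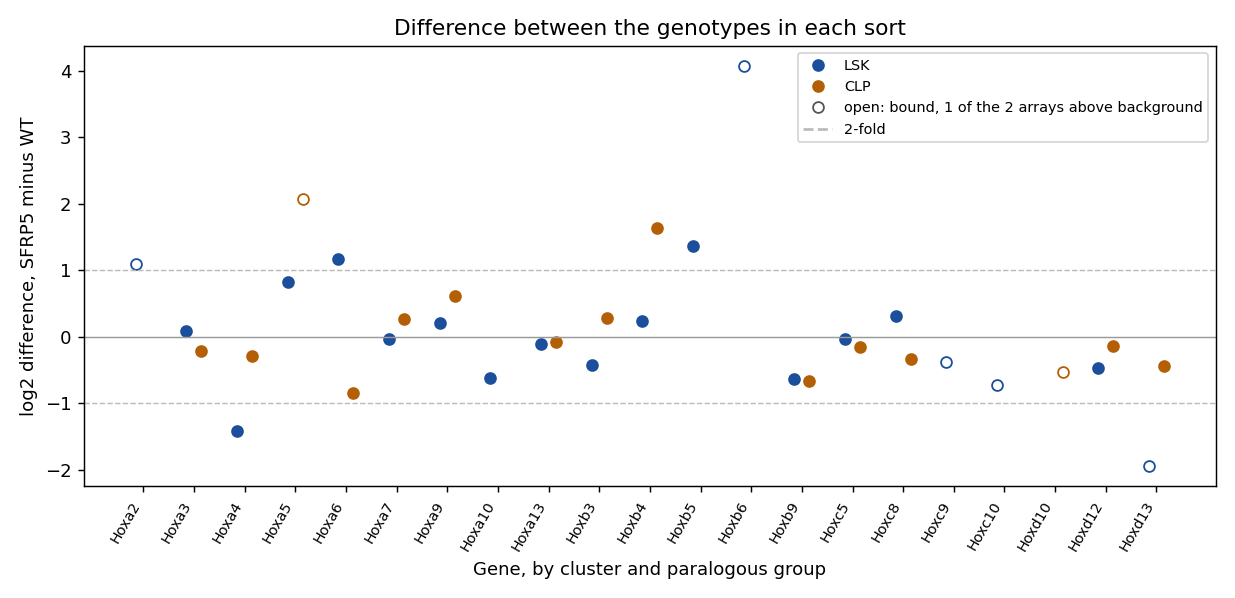
Log2 difference, SFRP5 minus WT, for Hox genes above background on at least 1 array of a pair: blue for LSK, orange for CLP, open for bounds, dashed lines at 2-fold. Hoxa4, Hoxa6 and Hoxb5 in LSK and Hoxb4 in CLP pass 2-fold among the filled points, and no gene does so in both sorts.

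The cofactors of HOX proteins were read next to the Hox genes. Of 9 cofactor genes on the array, 7 entered the fit, 1 was called lower in CLP and none higher. The 1 was Meis1, which binds DNA with HOXA9 and is itself needed by blood stem cells: it read 2.84 and 3.14 in LSK and -0.68 and -0.27 in CLP, an estimate of -3.46 on the log2 scale (SE 0.363, adjusted p = 0.0153 in limma). Among the PBX genes the estimates were 0.43 for Pbx2, 0.97 for Pbx3 and -1.42 for Pbx4, with adjusted p-values from 0.126 to 0.534. Meis2 and Pknox2 were not above background on any array.

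None of the 11 upstream activators in the fit was called for sort. Kmt2a, whose product MLL1 keeps Hox genes active, read 3.15 in both LSK groups and 2.26 and 2.22 in CLP (estimate -0.91, SE 0.363, adjusted p = 0.226). Cdx1, Cdx2 and Cdx4 were not above background on any array. None of the 9 Polycomb genes was called either. Cbx7, a chromobox subunit that is known to favour self-renewal of stem cells, had the largest fall among them at -1.39 (adjusted p = 0.110), and Suz12 and Ezh2, core subunits of Polycomb repressive complex 2, had estimates of 1.02 and 0.93 (adjusted p = 0.188 and 0.216).

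Of the genes that flank the clusters, 11 were on the array and 9 were above background on all 4 arrays, and none of the 9 was called for sort. Skap2 and Hibadh, which bound the Hoxa cluster, had estimates of -0.66 (adjusted p = 0.351) and 0.09 (adjusted p = 0.912). Evx1, between the posterior end of that cluster and Hibadh, was not above background on any array. Ttll6, beyond the posterior end of the Hoxb cluster, was above background in LSK only. It was at least 5.64-fold lower in WT CLP and at least 3.71-fold lower in SFRP5 CLP (adjusted p = 0.0285 in limma, a call made through its LSK arrays). Skap1 at the other end of Hoxb had an estimate of 0.44 (adjusted p = 0.661). Beside Hoxc, Calcoco1 had an estimate of -1.65 (adjusted p = 0.0789), and beside Hoxd, Lnpk had one of 2.17 (adjusted p = 0.0622).

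Noncoding names inside the clusters were kept apart from the members. Hoxaas3, a long noncoding RNA of the Hoxa cluster that lies between Hoxa4 and Hoxa5 in RefSeq order, read -3.999 and -3.05 in LSK and was not above background in CLP. It was at least 1.67-fold lower in WT CLP and at least 3.63-fold lower in SFRP5 CLP (adjusted p = 0.0260 in limma, again through its LSK arrays). Hoxa11os, antisense to Hoxa11, was above background on all 4 arrays (-1.64, -1.81, -1.98 and -2.23), where Hoxa11 itself was on none. Hottip and Hoxd3os1 were not above background on any array.

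**Figure D5:**
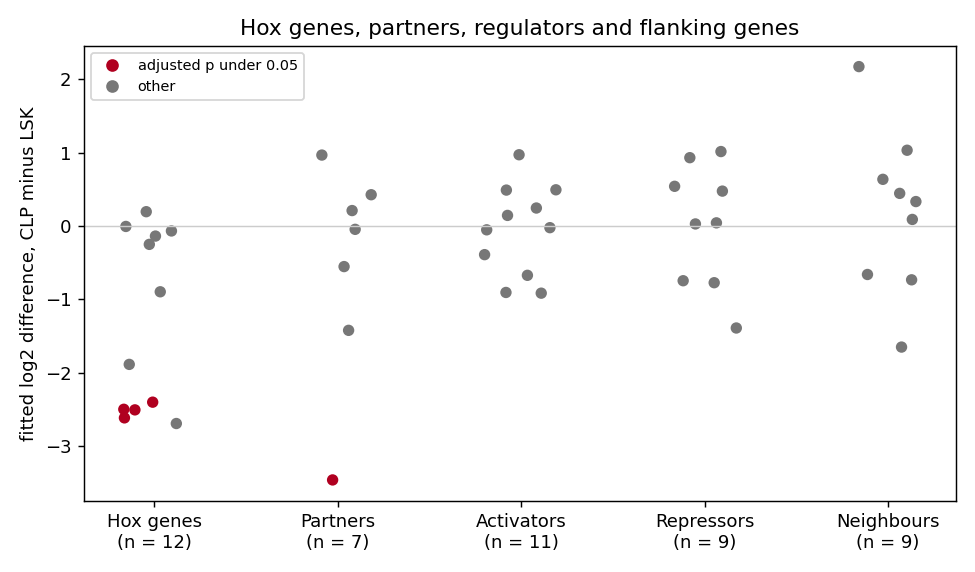
Fitted log2 difference, CLP minus LSK, of the 12 Hox genes above background on all 4 arrays beside 7 cofactor genes, 11 activators, 9 repressors and 9 flanking genes chosen the same way; each point is a gene, red where the adjusted p is under 0.05, with horizontal jitter for legibility. The red points are 4 Hox genes and Meis1 among the cofactors.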

How the data were processed

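RNA of 4 sorted samples was labelled with Cy3 after whole-transcriptome amplification, per the labels' protocols. The deposited scanner files hold 1-colour spot intensity, background-subtracted by Agilent Feature Extraction 10.10.1.1 on probes annotated to mm9, per the file headers. The authors' deposited signal table holds the same intensity times 1 factor per array (6.42, 5.85, 5.86 and 4.91 for WT LSK, SFRP5 LSK, WT CLP and SFRP5 CLP, computed here). The sources used here do not say how they were set. Saturation was found on 0 spots, and array number limits the precision.

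The log2 of the processed intensity minus each array's 75th percentile (276.5, 277.5, 227.2 and 290.9 in the same order) was taken over 59305 spots outside the controls. Spots with an outlier flag were left out, spots of a probe were averaged, and each gene was represented by its brightest probe on average; 5 Hox genes had several probes. Symbols were brought up to date by Entrez ID through RefSeq, which was used only for names, gene order and the printed sequences. The fit used limma 3.58.1 in R 4.3.3 (prior degrees of freedom 4.14). It was also run on simulated data with known changes between the sorts. These held no interaction of sort and genotype and no added spread for dim signals, so they do not test the fit on those points. All samples are on separate arrays and no p-value reflects spread between animals of a group.

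The members and gene lists were chosen with earlier results of these data known. Named with values are the Hox genes above background on at least 1 array, the others by name only; some of these genes are not reported here. Alternatives were quantile and cyclic loess scaling, the deposited table, normexp (offset 50), the mean of a gene's probes, other filters, thresholds and a variance trend. Normexp used the median spot signal, as the files used here have no mean signal.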

Additional observations from a re-analysis of the deposited data

Results flagged for a closer look

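Of the 12 Hox genes above background on all 4 arrays, 3 differed between the genotypes in opposite directions in the sorts by more than the spread between replicate spots. That spread is technical and holds none of the spread between mice, so with 1 array per group these are values only, and whether the genotype difference differs between the sorts was not tested. The direction was the same in both sorts for 7 of the 12, against 47% of all such genes. For opposite directions by more than that spread, the share of all genes was not computed. The count of 3 thus has nothing to be set against. Hoxa6 was higher in SFRP5 than in WT mice by 1.17 on the log2 scale in LSK and lower in CLP (-0.85). Hoxb3 was lower in LSK (-0.42) and higher in CLP (0.27). With normexp it was lower in both (-0.305 and -0.207), and its other probe read higher in both (0.24 and 2.74, with WT CLP not above background). Hoxc8 was higher in LSK (0.31) and lower in CLP (-0.33), both small at its signal level, where replicate spots spread by 0.176 to 0.217.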

How the results depend on the processing

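No paired analysis was possible because the labels carry no replicate numbers to use as a block; the fit compares the sorts within each genotype, and that is all the pairing there is. No array could be left out, since each group has 1. The lower level in CLP of each gene from Hoxa3 to Hoxa10 and from Hoxb3 to Hoxb5 kept its direction in both genotypes under quantile, cyclic loess and normexp processing, the deposited table and the mean of probes. Of 370 single-gene differences recomputed, 252 stayed within the spot spread and 118 moved. The flag gIsPosAndSignif, which asks less than gIsWellAboveBG, put 27 (WT) and 26 (SFRP5) Hox genes above background in LSK, and 26 and 29 in CLP. The counts were thus lower in CLP in WT mice only, and the share of all genes with this flag was not computed. Normexp, which pulls dim signals together, left 4 Hox genes 2-fold apart between the sorts in WT, 4 in SFRP5, and 0 between the genotypes in LSK and 0 in CLP. With no filter on dim probes these counts were 14, 15, 8 and 6. The 14 in WT were all lower in CLP, and in SFRP5 mice 12 were lower and 3 higher. Between the genotypes, 4 were lower and 4 higher in SFRP5 LSK, and all 6 were higher in SFRP5 CLP. No 2-fold share of all genes was computed with normexp or without the filter on dim probes. A 3-fold limit left 0 between the genotypes in LSK, and the mean of probes gave 2 in CLP. Without that filter the fit called 1 Hox gene for sort (Hoxa10), and under a filter of all 4 arrays 6, with Hoxa6 (adjusted p = 0.00715) and Hoxb4 (0.0216) gained and Hoxa5, Hoxa10 and Hoxb5 no longer tested. Normexp lost Hoxa4 and Hoxb5 and gained Hoxa6 and Hoxb4, and a variance trend gained the same pair. Under the alternatives run, Hoxa4 ranged from an adjusted p of 0.00441 to 0.112. Over all genes the fit called 398 lower and 428 higher in CLP; quantile gave 226 and 307, cyclic loess 240 and 330, the values as deposited 527 and 334, normexp 885 and 1527, no filter 55 and 114, all 4 arrays 764 and 922, and a trend 795 and 1179. The deposited table shifted the median of all genes by -0.414 (CLP minus LSK in WT), -0.186 (in SFRP5) and -0.129 (SFRP5 minus WT in LSK). That table holds the same intensity times a factor for each array, so its shift is the same for every gene of a pair. The cause of the other changes was not tested.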
